A study of Mus musculus with 2 samples.

Results

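Bone morphogenetic proteins (BMPs) are secreted ligands that bring together a type I and a type II receptor on the cell surface. The active receptors phosphorylate SMAD proteins, which enter the nucleus and induce target genes, among them the Id genes. Secreted antagonists bind BMP ligands outside the cell and keep them from their receptors, and in bone the balance of ligands and antagonists bears on the differentiation of stromal cells into osteoblasts. In endothelial cells the same pathway is best known for vessel remodelling.

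The levels of 10 genes of this pathway, out of 28006 features counted, were described across the stromal and endothelial cells of mouse bone marrow. They were the ligands Bmp2, Bmp4 and Bmp6, the antagonists Grem1 and Chrdl1, the pseudoreceptor Bambi, the receptors Bmpr1a and Bmpr2, and the target genes Id1 and Id3, found by their symbols. All 10 were detected. They were chosen with their levels across the cell classes already known, so those levels are given as a description with no test. The members themselves were tested only between tdTomato states, a contrast that the choice did not use. Other pathway genes were tested between the classes, and that list too was drawn up with earlier results known.

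Each of 2 mice, aged 28 postnatal days, gave 1 library of femur cells, and together they formed 1 group without a control. Both carried 1 Cxcl12 allele replaced by GFP, written Cxcl12(GFP/+), together with Cxcl12-iCreER and R26R(tdTomato/+), and received tamoxifen at postnatal day 21. GFP therefore reports Cxcl12, a chemokine of marrow stroma, from an allele that leaves only the other Cxcl12 copy intact. The recombinase was expressed from a bacterial artificial chromosome with Cxcl12 sequence, in a single founder line, and tdTomato is kept by recombined cells and their progeny. Growth plates at the distal end were removed before the bones were dissociated with enzymes. Most labels and the study's methods describe a sort on GFP, while the protocol label names tdTomato+ cells. The sort was taken to be on GFP, as most labels and the study state. In mouse 1 and mouse 2, 61.0% and 61.4% of the reticular-like cells did not reach the tdTomato threshold used below. A cell below it can still hold tdTomato UMIs, so this share does not settle the kind of sort.

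The libraries held 54940400 UMIs (molecular tags that count each captured transcript once) in mouse 1 and 88790688 in mouse 2. Limits of 1000 genes or more and of 15% mitochondrial UMIs or less left 2750 and 4582 cells, and 7 of these barcodes occurred in both libraries. Classes were named from markers, with all pathway genes left out of the clustering. Adipoq+ reticular-like cells numbered 1312 and 2559, preosteoblast-like cells 410 and 790, periosteal-like cells 79 and 239, endothelial-like cells 152 and 138, and mature osteoblast-like cells 14 and 62. A further 710 and 700 hematopoietic cells, which a GFP sort should not hold, served as background. Levels are given as CPM, the UMIs of a gene per 1000000 UMIs of a class, summed per mouse. Endothelial-like cells carried all 8 endothelial markers, at a summed 6246 and 5781 CPM against 16.9 and 21.3 in reticular-like cells. They also held myeloid markers at 7635 and 5191 CPM, with 1 of the 10 markers at 0 in each mouse, and 73.3% and 96.9% of their S100a8 UMIs lay in 1 cell of each mouse. Without that cell the mean of each member there over the mice moved by less than 1 SD.

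In mouse genome build GRCm38 (GENCODE M21), all of the following are protein-coding genes. Bmp4 lies at chr14:46383520-46390669 on the minus strand, Bmp2 at chr2:133552159-133562885 on the plus strand and Bmp6 at chr13:38345107-38500302 on the plus strand. Grem1 lies at chr2:113746164-113758646 on the minus strand and Chrdl1 at chrX:143285674-143394262 on the minus strand. The receptor genes lie at chr14:34410734-34503341 on the minus strand for Bmpr1a and at chr1:59763400-59879014 on the plus strand for Bmpr2. Id1 lies at chr2:152736251-152737410 and Id3 at chr4:136143497-136145755, both on the plus strand.

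Bmp4 and Grem1, a ligand and an antagonist that binds it, were both at their highest in reticular-like cells, so the 250 bases before their start sites are shown (RefSeq, build GRCm38.p6, both minus strand). The Bmp4 stretch is chr14:46390670-46390919 and the Grem1 stretch is chr2:113758649-113758898. Capitals mark matches on either strand to GGCGCC and GTCTG, short motifs that SMAD proteins can bind, and to CANNTG, the E-box of the bHLH factors that Id proteins sequester.
Bmp4: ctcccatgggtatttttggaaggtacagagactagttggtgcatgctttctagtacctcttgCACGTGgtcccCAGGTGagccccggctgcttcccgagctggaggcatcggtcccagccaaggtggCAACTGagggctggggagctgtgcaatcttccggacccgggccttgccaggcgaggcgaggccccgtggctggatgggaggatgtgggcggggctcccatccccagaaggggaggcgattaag
Grem1: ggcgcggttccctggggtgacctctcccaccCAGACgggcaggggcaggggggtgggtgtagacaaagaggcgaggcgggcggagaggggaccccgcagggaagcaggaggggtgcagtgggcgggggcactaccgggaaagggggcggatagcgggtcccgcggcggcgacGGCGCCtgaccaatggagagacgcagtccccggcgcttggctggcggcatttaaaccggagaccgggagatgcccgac

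The stretches shared no motif. Bmp4 held 3 E-boxes and neither SMAD motif, and Grem1 held 1 GGCGCC and 1 GTCTG (read as CAGAC on this strand) and no E-box. Across all 32851 promoter windows of this length, 9.59% held GGCGCC, 42.2% held GTCTG and 66.2% held CANNTG, so none of these matches is rare. The motifs did not overlap in these stretches. A match describes the letters and is no evidence of binding. RefSeq promoters matched 6 of the 10 members, and Bmp2, Chrdl1, Bambi and Id1 had no entry.

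Reticular-like cells held the highest levels of Bmp4, Bmp6, Grem1 and Chrdl1, endothelial-like cells those of Bambi, Bmpr2 and Id1, and periosteal-like cells that of Bmpr1a. In these 8 of 10 members the highest of the 4 classes with enough cells stood above the other 3 in both mice. Of all 7390 genes with at least 20 CPM in a class of both mice, 68.1% did so, and the members were chosen on this contrast, so nothing is read from their count. Bmp2 and Id3 had no class that stood apart.

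**Figure D1:**
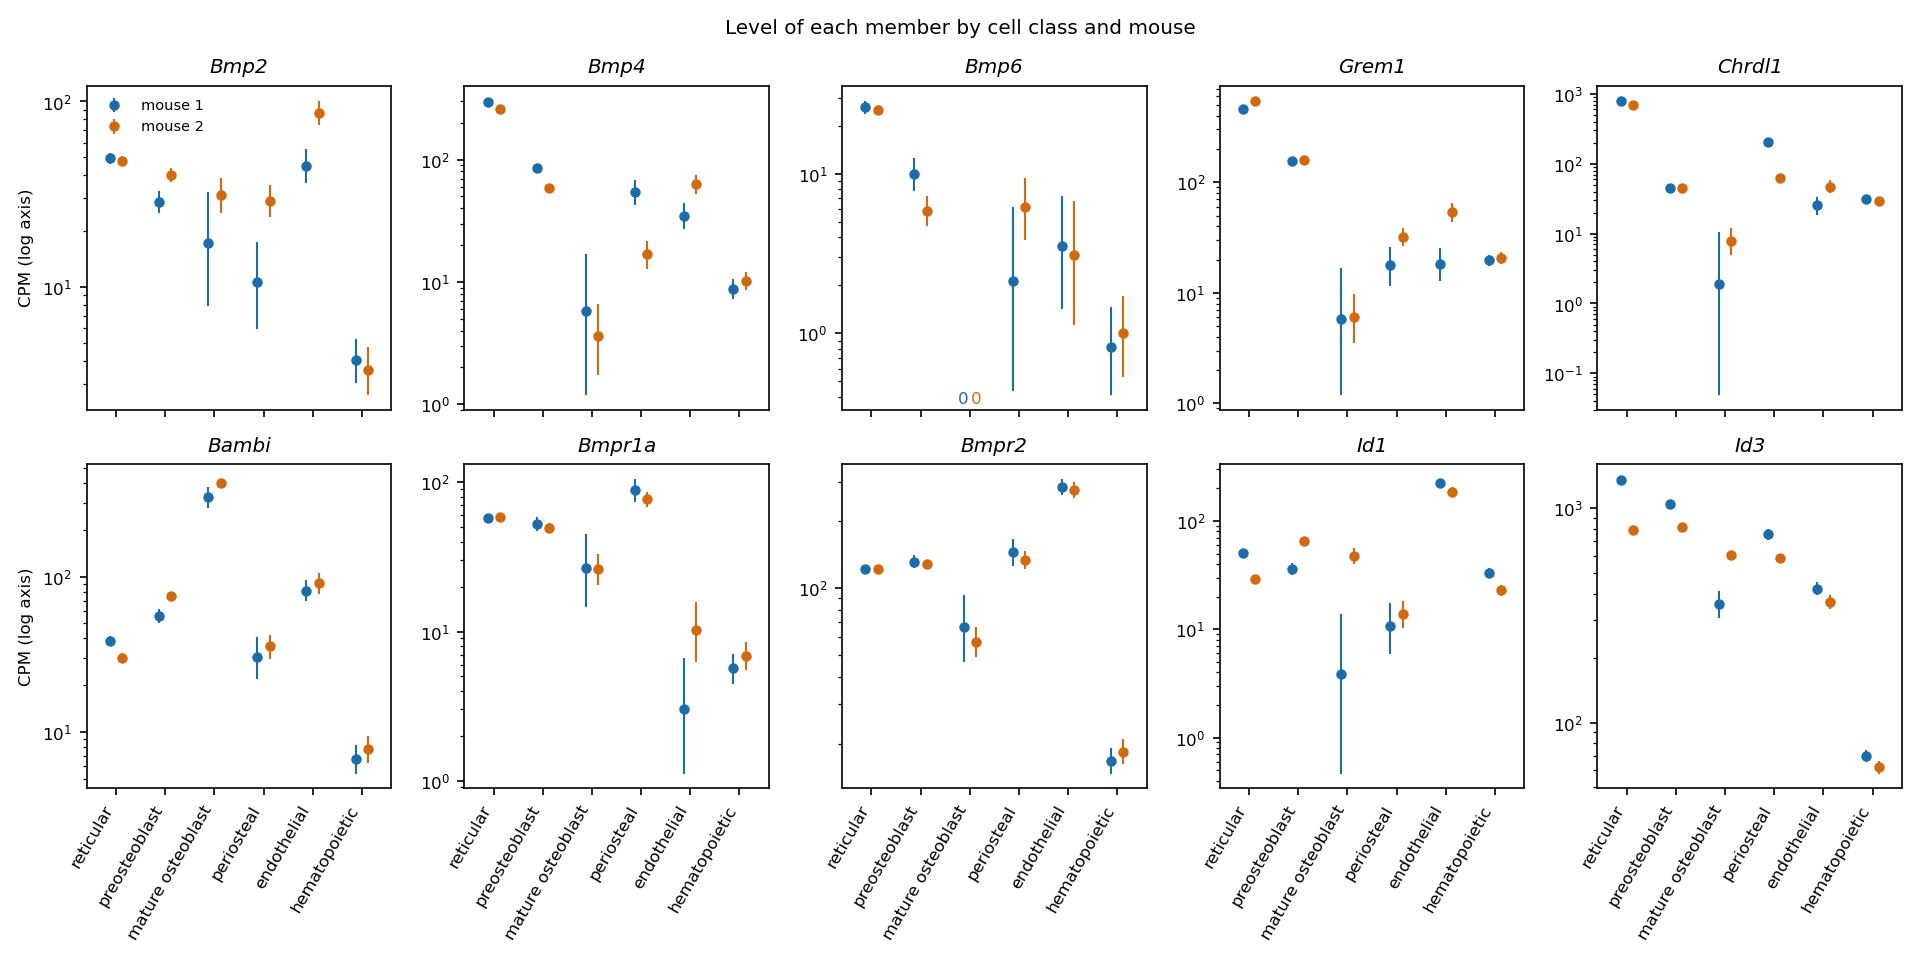
Level of each of the 10 members (y axis, CPM, log scale) in 6 cell classes (x axis), with 1 point per mouse and its exact 95% Poisson interval. A printed 0 means that no UMI was counted. Bmp4, Grem1 and Chrdl1 are highest in reticular cells, Bmpr2 and Id1 in endothelial cells, and Bambi in mature osteoblasts.

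Among the ligands, Bmp4 showed the clearest order. This ligand, which induces bone when applied to muscle, was at 295 and 257 CPM in reticular-like cells of mouse 1 and mouse 2 (276 ± 26.5, SD, n = 2). It was at 85.5 and 58.4 in preosteoblast-like cells and at 5.74 and 3.59 in mature osteoblast-like cells, where it rested on 3 and 10 UMIs. From each of these classes to the next the mice did not overlap, and this order is not a traced lineage. Endothelial-like cells, at 34.9 and 62.7 CPM, and periosteal-like cells, at 54.4 and 16.8, overlapped each other, and hematopoietic cells were at 8.80 and 10.2.

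Bmp2, a close relative of Bmp4, was less tied to a class. Reticular-like cells held 49.5 and 48.1 CPM and endothelial-like cells 45.0 and 86.8, which overlap. Preosteoblast-like cells were at 28.8 and 40.2, mature osteoblast-like cells at 17.2 and 31.2 and periosteal-like cells at 10.6 and 29.2, so these classes overlapped as well. All lay above the 4.03 and 3.56 CPM of hematopoietic cells. Bmp6, which in liver endothelium controls iron balance through hepcidin, was a low gene here. It was at 26.1 and 25.1 CPM in reticular-like cells and at 9.94 and 5.87 in preosteoblast-like cells. In endothelial-like cells it rested on 7 and 6 UMIs (3.54 and 3.08 CPM). No Bmp6 UMI was found in mature osteoblast-like cells, and a floor of 3 UMIs per library put it at least 4.55-fold and 23.3-fold below reticular-like cells in mouse 1 and mouse 2.

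The antagonists followed Bmp4 into reticular-like cells. Grem1 (Gremlin 1) binds BMP2 and BMP4. It was at 457 and 538 CPM in reticular-like cells (497 ± 56.9, SD, n = 2) and at 156 and 159 in preosteoblast-like cells. In the other classes it was low, from 5.74 and 6.10 CPM in mature osteoblast-like cells to 18.2 and 53.4 in endothelial-like cells, a range that encloses the 19.7 and 20.7 CPM of hematopoietic cells. Chrdl1 (Chordin-like 1), a secreted BMP antagonist, was at 786 and 687 CPM in reticular-like cells and at 45.4 and 44.7 in preosteoblast-like cells. Periosteal-like cells lay between, at 204 and 62.0 CPM, and this was the widest relative gap between the mice for this gene among classes with at least 20 cells in each mouse. Endothelial-like cells, at 25.3 and 47.3 CPM, overlapped hematopoietic cells at 31.6 and 29.8.

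Free RNA in the droplets carried the same genes. In barcodes of at most 100 UMIs, Chrdl1 was at 285 and 274 CPM, Grem1 at 185 and 245 and Bmp4 at 112 and 137, all above the hematopoietic level. How much free RNA added to the low classes was not tested. After thinning each cell to 2000 UMIs, 71.8% (95% Wilson interval 69.3 to 74.2%) and 65.5% (63.6 to 67.3%) of reticular-like cells held a Chrdl1 UMI. Among hematopoietic cells 2.82% (1.83 to 4.32%) and 4.30% (3.03 to 6.07%) did, at a close median depth (12858.5 and 10648.5 UMIs against 12078.5 and 11216). The endothelial-like shares of Chrdl1 (2.63% and 4.35%) and Grem1 (3.95% and 2.90%) had intervals that overlapped those of the hematopoietic shares (2.68% and 3.01% for Grem1). In cells thinned to 4000 UMIs the endothelial-like Grem1 shares were 6.25% (3.32 to 11.5%) and 9.85% (5.85 to 16.1%), against 3.24% (2.10 to 4.95%) and 5.52% (3.93 to 7.68%) of hematopoietic cells, and the intervals overlapped again. Without thinning, Chrdl1 was seen in 93.2% and 92.7% of reticular-like cells.

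Bambi is a membrane protein that resembles a type I receptor, lacks the kinase and dampens BMP and TGF-beta signals. It ran against the antagonists. Reticular-like cells held 38.5 and 30.1 CPM, against 55.8 and 74.9 in preosteoblast-like cells, and 325 and 400 in mature osteoblast-like cells. The mice did not overlap at any of these steps, an order opposite to that of Bmp4 over the same classes. Mature osteoblast-like cells were only 14 in mouse 1, so they entered no test. After thinning, 28.6% (11.7 to 54.6%) and 45.2% (33.4 to 57.5%) of them held a Bambi UMI, against 5.74% and 4.36% of reticular-like cells. Endothelial-like cells were at 81.4 and 90.4 CPM, and periosteal-like cells at 30.4 and 35.6 overlapped reticular-like cells.

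Of the receptors, Bmpr1a was higher in stroma than in endothelial-like cells. Bmpr2 was present in both and was highest in endothelial-like cells. Bmpr1a, the type I receptor for BMP2 and BMP4, was at 88.4 and 77.2 CPM in periosteal-like cells. Reticular-like cells were at 57.7 and 59.0 and preosteoblast-like cells at 52.8 and 49.8. In endothelial-like cells it fell to 3.03 and 10.3 CPM (6 and 20 UMIs), a range that encloses the hematopoietic 5.67 and 6.89. With the cells of highest doublet score removed, the endothelial-like mean changed by 2.04-fold, beyond 1.5-fold, and no other member level did so under other cell limits, clustering or doublet removal. Bmpr2, the type II receptor whose human gene is mutated in heritable pulmonary arterial hypertension, was at 284 and 276 CPM in endothelial-like cells (280 ± 5.58, SD, n = 2). The 3 other tested classes lay together between 121 and 145 CPM, and mature osteoblast-like cells were at 67.0 and 57.5. A Bmpr2 UMI was found in 46.7% (39.0 to 54.6%) and 36.2% (28.7 to 44.5%) of thinned endothelial-like cells, in 20.1% and 20.2% of reticular-like cells and in 2.96% and 3.87% of hematopoietic cells.

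The Id genes, which encode inhibitors of bHLH transcription factors and respond early to BMP, did not share an order. Id1 was at 222 and 186 CPM in endothelial-like cells (204 ± 25.2, SD, n = 2), mostly from the arterial-type cluster described below, and far lower in the named stromal classes. Reticular-like cells were at 50.2 and 29.0, preosteoblast-like cells at 36.2 and 65.0, and periosteal-like cells at 10.6 and 13.8. A cluster left unnamed for its cell cycle genes (67 and 84 cells) was above these, at 83.6 and 114 CPM. The reticular-like and preosteoblast-like values overlapped, with the mice in opposite order. Hematopoietic cells, at 33.3 and 22.9 CPM, were near reticular-like cells, but their kinds differed. Myeloid cells held 53.9 and 43.3 CPM of Id1, lymphoid cells held 4.80 and 3.38, erythroid cells were lower still on 5 and 14 UMIs, and free RNA was at 39.8 and 41.1. After thinning, 7.12% (5.84 to 8.64%) and 3.18% (2.57 to 3.94%) of reticular-like cells held an Id1 UMI. For hematopoietic cells the shares were 3.81% (2.63 to 5.48%) and 3.15% (2.09 to 4.73%), and in mouse 2 the intervals overlapped.

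Id3 was a high gene in all stroma. It was at 1351 and 788 CPM in reticular-like cells, at 1052 and 819 in preosteoblast-like cells, at 757 and 588 in periosteal-like cells and at 356 and 604 in mature osteoblast-like cells. Endothelial-like cells were below the first 3 classes, at 421 and 365. Hematopoietic cells were at 69.8 and 62.0, and the lymphoid cells among them at 242 and 141. Free RNA held Id3 at 718 and 498 CPM, above both endothelial-like values, and its part in these levels was not tested. In absolute CPM the mice differed most in reticular-like cells. The sum of 10 immediate early genes (Fos, Jun, Egr1 and others), which rise during enzymatic dissociation, differed in the same direction, at 11491 CPM in mouse 1 and 8722 in mouse 2. It also did so in periosteal-like, endothelial-like and mature osteoblast-like cells, but not in preosteoblast-like cells, at 4051 and 4653 CPM. A sum of 5 heat shock genes went against Id3 in reticular-like cells, at 912 and 1471 CPM, and in preosteoblast-like cells. In the other stromal and endothelial classes it went with Id3. The part of dissociation in the Id3 level was not tested.

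Reticular-like cells formed 4 clusters, and the members differed among them. Cluster 0 held 59.1% and 55.5% of the class in mouse 1 and mouse 2, cluster 2 held 24.1% and 18.8%, cluster 3 held 13.4% and 23.9%, and cluster 13 held 3.35% and 1.76%. Cluster 3 was led by Fam13a, Kcne4, Cyr61 and Hspb1, with the heat shock genes Hspa1a and Hspa1b and with Jun among its top 10 genes, and cluster 13, led by Cxcl9, was shallow at a median of 3572 UMIs. For 6 of 10 members the same cluster was highest in both mice. That share is close to the 64.1% found over 6564 genes, so it is not a result about the members.

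Bmp4 was highest in cluster 2 in both mice. It was at 516 and 546 CPM there and at 422 and 376 in cluster 3, against 212 and 140 in cluster 0 and 125 and 136 in cluster 13. Cluster 2 was also low in immediate early genes, at 3256 and 3355 CPM against 12678 and 6871 in cluster 0. Chrdl1 hardly moved over the same clusters, from 676 to 819 CPM in mouse 1 and from 683 to 705 in mouse 2. Reticular-like clusters thus differed in the ligand while this antagonist was near level.

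Bmp2, Grem1, Id1 and Id3 were highest in cluster 3 in both mice. Bmp2 was at 93.8 and 94.3 CPM there and at 46.3 and 31.9 in cluster 0. Grem1 was at 590 and 692 against 470 and 498, and Id3 at 2077 and 1298 against 1364 and 640. Immediate early genes in cluster 3 summed to 18998 and 17258 CPM, and 5 heat shock genes to 4145 and 4845 against 509 and 322 in cluster 0. The 4 members thus stood highest in the cluster with the highest sums of both stress lists, and the part of dissociation in these levels was not tested.

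**Figure D2:**
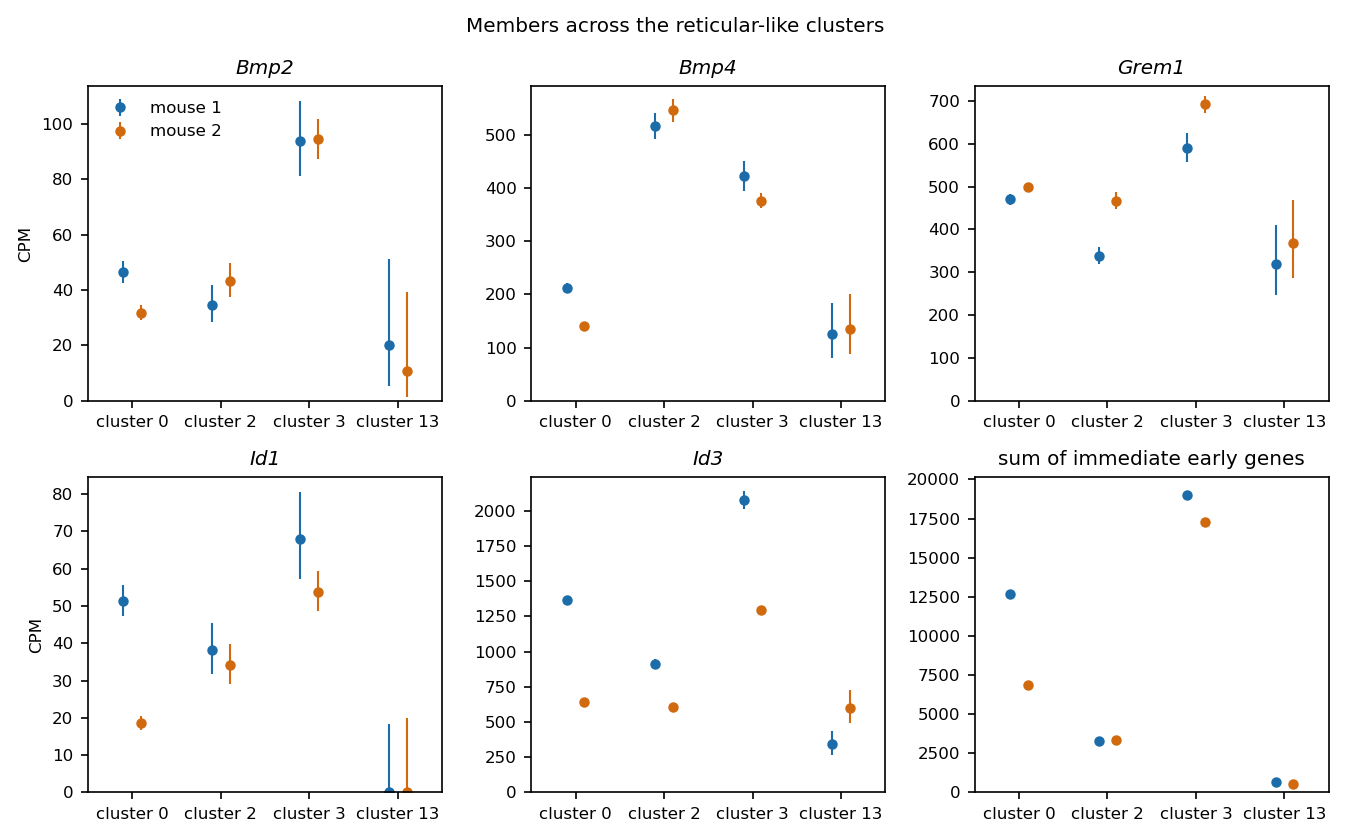
Levels of 5 members and the sum of 10 immediate early genes (y axes, CPM from 0) in the 4 reticular-like clusters (x axes), with 1 point per mouse and its exact 95% Poisson interval. Bmp4 peaks in cluster 2, while Bmp2, Grem1, Id1 and Id3 peak in cluster 3 together with the immediate early genes.

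Cell by cell, members were only weakly related in reticular-like cells. Across 1307 and 2545 thinned reticular-like cells, which share a library and its depth, Pearson's r of Id1 with Id3 was 0.12 in mouse 1 and 0.17 in mouse 2. Id3 with the immediate early sum gave 0.36 and 0.22, and Grem1 with that sum gave 0.20 and 0.14. Bmp4 with Id3 gave 0.03 and 0.10. The Id genes were more closely related in the other classes, where Id1 with Id3 gave 0.24 and 0.25 in preosteoblast-like cells (410 and 787 cells) and 0.38 and 0.51 in endothelial-like cells (152 and 138 cells). Bmp4 with Chrdl1 gave 0.31 and 0.18 in endothelial-like cells, with both endothelial clusters described below pooled. Only 4 and 6 of these thinned cells held a Chrdl1 UMI, and 10 and 11 held a Bmp4 UMI. In counts this sparse such values only describe the cells.

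Endothelial-like cells fell into an arterial-type cluster of 124 and 110 cells and a sinusoidal-type cluster of 28 and 28 cells. Gja4, an arterial gap junction gene, was at 505 and 572 CPM in the former and had no UMI in the latter, while the scavenger receptor gene Stab2 was at 3.30 and 0 CPM against 939 and 781. Id1 was at 276 and 228 CPM in arterial-type cells and at 45.5 and 39.6 in sinusoidal-type cells. These sinusoidal-type values lay within the ranges of reticular-like (50.2 and 29.0) and of preosteoblast-like cells (36.2 and 65.0). Bmpr2 was similar in both endothelial clusters, at 285 and 264 against 280 and 317, and so was Id3, at 450 and 365 against 327 and 366. Grem1 and Chrdl1 were higher in the sinusoidal-type cluster, at 62.9 and 168 CPM for Grem1 (29 and 72 UMIs) and at 82.4 and 149 for Chrdl1 (38 and 64 UMIs). The arterial-type cluster held 4.62 and 21.1 CPM of Grem1 and 7.92 and 18.4 CPM of Chrdl1. Both genes are abundant in reticular-like cells and in free RNA, and the source of these UMIs was not tested.

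Reticular-like cells above a tdTomato threshold were compared with those below it, a contrast that did not enter the choice of members. Positive cells exceeded the 99th percentile of tdTomato in blood cells from the same animal, which gave 512 positive and 800 negative cells in mouse 1 and 987 and 1572 in mouse 2. This threshold allows some tdTomato UMIs in a negative cell and was higher in mouse 2 than in mouse 1, so negative does not mean unmarked. The paper reports some tdTomato+ cells without tamoxifen, nearly all in the fraction that holds blood and endothelial cells. Bmp2, Bmp4, Bambi and Id1 were lower in positive cells of both mice. Bmp4 was at 267 CPM in positive and 313 in negative cells of mouse 1, and at 207 and 290 in mouse 2. Bambi was at 29.0 and 44.8 in mouse 1 and at 24.1 and 34.0 in mouse 2. For both genes the positive cells of either mouse lay below the negative cells of either mouse.

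Bmp2 was at 43.1 in positive and 53.8 in negative cells of mouse 1, and at 37.8 and 54.8 in mouse 2, again without overlap. Id1 was at 47.6 and 52.0 in mouse 1 and at 20.97 and 34.3 in mouse 2, where the mice differed more than the cells, so the groups overlapped. Chrdl1 was at 838 and 751 in mouse 1 and at 694 and 683 in mouse 2, and Id3 went in opposite directions, at 1387 and 1327 in mouse 1 and at 728 and 828 in mouse 2.

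The call depended on whether the mouse was a term of the fit. In edgeR's quasi-likelihood test on the sums, with no term for mouse, 0 of 12219 genes passed an adjusted p of 0.05 (0%, with 556 at an unadjusted p under 0.05), and no member did (2 at an unadjusted p under 0.05). DESeq2 called 11 genes and no member. Positive and negative cells came from the same animals, so they are paired. With the mouse as a block edgeR called 824 genes (6.74% of those tested, 3.43% higher and 3.31% lower) and 4 of the 10 members, all lower in positive cells. Bambi changed by -0.52 ± 0.09 (log2 fold change, SE, edgeR adjusted p = 5.12e-07), Bmp2 by -0.42 ± 0.07 (adjusted p = 1.79e-06), Bmp4 by -0.33 ± 0.05 (adjusted p = 2.81e-07) and Id1 by -0.39 ± 0.08 (adjusted p = 0.000228). The blocked fit leaves little freedom within each gene, so its spread rests on the estimate pooled over all genes. Its SEs and p-values, here and in the matched cells below, do not measure how far each gene differed between the mice. The log2 ratios in mouse 1 and mouse 2 were -0.61 and -0.48 for Bambi and -0.31 and -0.53 for Bmp2. They were -0.23 and -0.49 for Bmp4 and -0.13 and -0.69 for Id1.

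**Figure D3:**
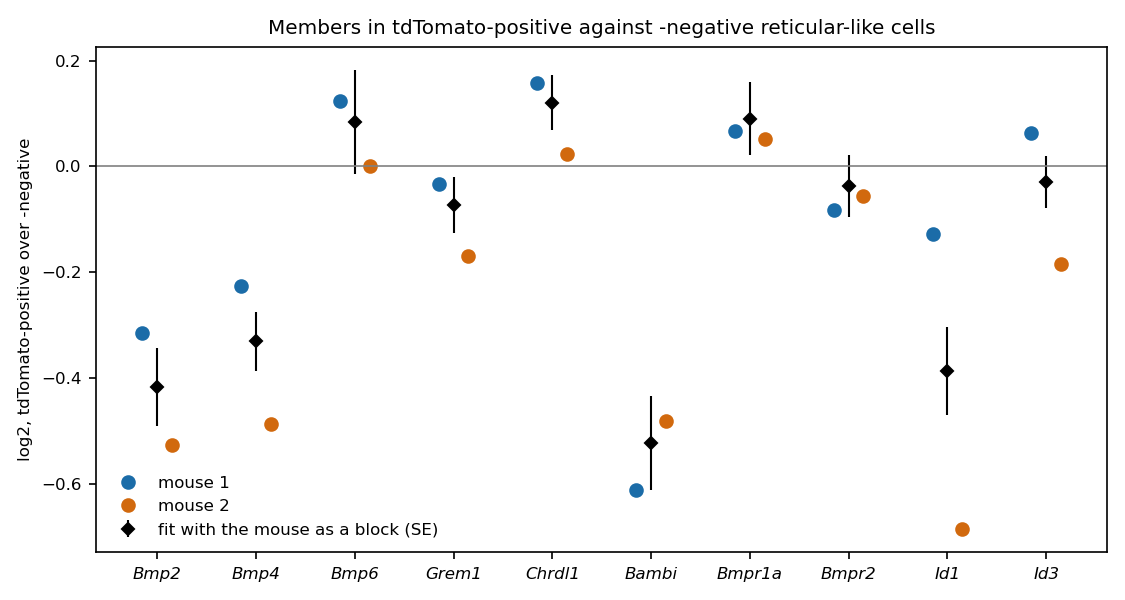
Log2 ratio of tdTomato-positive over tdTomato-negative reticular-like cells (y axis) for the 10 members (x axis), with 1 circle per mouse and a diamond with its SE for the edgeR fit with the mouse as a block. Bmp2, Bmp4, Bambi and Id1 lie below 0 in both mice, and Id3 lies on both sides of 0.

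Positive and negative cells also differed in makeup. Cluster 2, where Bmp4 was highest, held 17.2% of positive and 28.5% of negative cells in mouse 1 and 12.0% and 23.2% in mouse 2. In cells matched on cluster and depth (507 and 986 matched pairs), with the block, the Bmp4 change was -0.23 (edgeR adjusted p = 0.00234), and Bambi stayed at -0.56 (adjusted p = 3.66e-07). Grem1 was then called too, at -0.15 (edgeR adjusted p = 0.0484), in a fit that called 556 of all 11998 tested genes. Erythroid markers (9 genes) summed to 454 CPM in positive and 1850 in negative cells of mouse 1 and to 380 and 3796 in mouse 2, and their part in the differences was not tested. Myeloid markers went in opposite directions in the mice, at 239 and 319 CPM in mouse 1 and at 364 and 198 in mouse 2.

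Beyond the members, 48 other genes of the pathway were listed by role, and 36 were abundant enough to be tested between classes. Between preosteoblast-like and reticular-like cells 10 were higher and 8 lower in preosteoblast-like cells, at an edgeR adjusted p under 0.05. Of all 12656 tested genes, 13.0% were higher and 13.4% lower. The sums are paired by mouse, and with the mouse as a block 12 were higher and 13 lower. The share over all genes was not taken with the block, so 13.0% and 13.4% are no background for these counts. Without the block the median log2 fold change of the list was -0.17, against 0.02 over all genes. Immediate early genes summed to 4051 and 4653 CPM in preosteoblast-like cells against 11491 and 8722 in reticular-like cells, and their part in these differences was not tested.

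The ligands Bmp3, a bone matrix BMP that opposes the osteogenic ones, and Bmp8a were higher in preosteoblast-like cells. Bmp3 rose by 5.70 ± 0.57 (log2 fold change, SE, edgeR adjusted p = 0.000206), from 0.838 and 0.228 CPM in reticular-like cells to 29.5 and 22.1. Among 11 tested antagonists and modulators, 4 were higher and 4 lower. The antagonist Nog rose by 2.76, from 3.23 and 1.20 CPM to 9.94 and 18.9, and the antagonist Nbl1 by 2.74. Fst (follistatin, which binds activins and some BMPs) was at 477 and 429 CPM in reticular-like cells and at 89.7 and 73.7 in preosteoblast-like cells, a change of -2.53. Crim1, a transmembrane binder of BMPs, changed by -2.09. Fstl3, a relative of follistatin, rose by 2.10, from 1.44 and 1.01 CPM to 4.83 and 5.73. Preosteoblast-like cells thus held less Fst and Crim1 and more Nog, Nbl1 and Fstl3 than reticular-like cells, and still held Crim1 at 46.1 and 30.4 CPM and Grem1 at 156 and 159. With the block Bmper was called lower too (-0.97, edgeR adjusted p = 0.0145).

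Of 7 tested receptors and co-receptors, 3 were lower in preosteoblast-like cells and none higher, among them the co-receptor gene Rgma at -1.97 and the type II receptor gene Acvr2a at -1.81. With the block Acvrl1 (-0.56, edgeR adjusted p = 0.0082) and Rgmb (-0.66, adjusted p = 0.0201) were also called lower. Of 8 SMAD genes, 2 were higher and none lower, and with the block the inhibitor gene Smad7 was called lower (-0.45, edgeR adjusted p = 0.0326). The inhibitor gene Smad6 was at 120 and 111 CPM against 42.2 and 26.5 in reticular-like cells. The transducer gene Smad5 rose by only 0.38 (edgeR adjusted p = 0.0392), and this call was lost in DESeq2 (adjusted p = 0.0575) and without the low-count filter (edgeR adjusted p = 0.0544). Of 7 target genes, Dlx5, an osteoblast transcription factor, and Hey1 were higher and Id4 was lower. With the block Msx1 (0.42, edgeR adjusted p = 0.0354) and Atoh8 (1.21, adjusted p = 0.00527) were called higher and Tmem100 (-0.43, adjusted p = 0.0355) lower.

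Endothelial-like cells differed from reticular-like cells in more of the list, with 8 higher and 15 lower. Over all genes the shares were 25.1% and 24.7%, and the median was -0.68 for the list against -0.05 for all genes. The receptors that serve BMP9 and BMP10 in endothelium led the list upward. Acvrl1 (ALK1) was at 188 and 163 CPM against 24.5 and 20.4, a log2 fold change of 2.91 ± 0.18 (edgeR adjusted p = 2.38e-06), and the co-receptor gene Eng was at 656 and 547 against 67.1 and 85.5. Hey1 (1.95), Msx1 (1.08) and Smad6 (0.97) were also higher.

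Of the 11 antagonists and modulators, 6 were lower in endothelial-like cells and none higher, and with the block Nbl1 was called lower as well (-0.85, edgeR adjusted p = 0.0277). Fst was at 9.10 and 23.6 CPM there, a change of -4.85. The ligand gene Bmp5 (-4.10), the target gene Dlx5 (-4.01) and Rgma (-3.56) were lower as well.

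In periosteal-like cells 9 of the listed genes were higher and 12 lower than in reticular-like cells, against 12.9% and 9.71% of all genes, with a median of -0.22 for the list and -0.01 for all genes. Nbl1 was at 288 and 375 CPM against 8.80 and 10.6, a log2 fold change of 5.16 ± 0.27 (edgeR adjusted p = 7.17e-06). Fstl3 (3.32), Nog (2.81), Bmp8a (2.36) and Tmem100 (1.87), an endothelial target gene of BMP9, were higher too. Id4 (-2.69), Crim1 (-1.48) and Fst (-1.48) were lower. With the block Acvrl1 was called higher (0.66, edgeR adjusted p = 0.00828), and Smad6, called lower without it (-0.97, adjusted p = 0.0417), was no longer called (adjusted p = 0.0548). Smad9 had no UMI in periosteal-like cells and stood at only 2.39 and 2.54 CPM in reticular-like cells, at least 1.13-fold and 3.01-fold higher by the floor of 3 UMIs per library. The 3 comparisons share the same reticular-like sums, so genes that are called in several of them are not independent results.

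**Figure D4:**
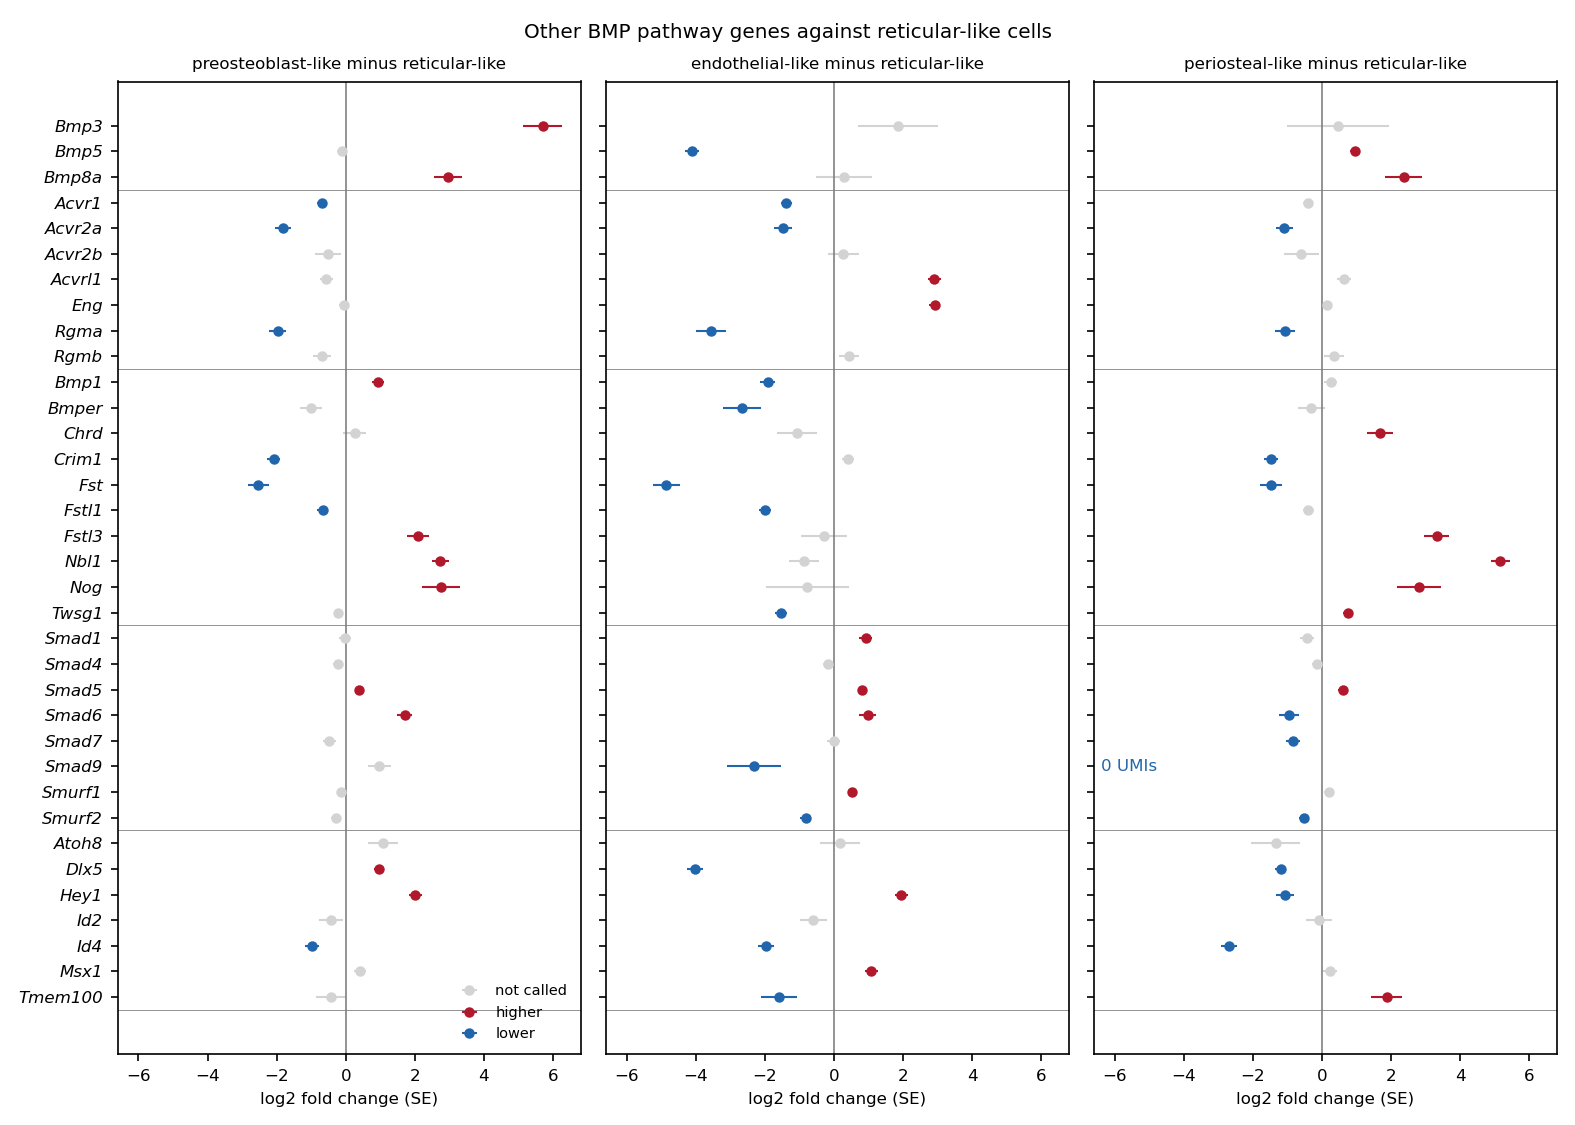
Log2 fold change with its SE (x axes) of 35 tested pathway genes other than the members (rows, with lines between the roles: ligands, receptors, antagonists and modulators, SMADs, targets) in 3 comparisons with reticular-like cells. Red points are higher and blue points lower at an edgeR adjusted p under 0.05, grey points were not called, and "0 UMIs" marks a gene without a UMI in the class compared.

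Among 7365 genes compared over the 8 sums of 4 classes and 2 mice, the gene most like Grem1 was Adipoq, which encodes adiponectin (Pearson's r = 0.995 of log2(CPM + 1)). The gene most like Id1 was Strn3 (r = 0.991), that most like Bmp4 was Dda1 (r = 0.973) and that most like Bmpr2 was Fam65a (r = 0.998). Over 8 points that share libraries and classes, many genes reach such values, and they describe only the order of the classes.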

How the data were processed

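Droplet (10x 3′ v3) UMI counts per feature and barcode were deposited as raw counts, which the authors made with Cell Ranger 3.0.0 (per the file headers) on mm10 with added reporter sequences. All barcodes were deposited, and cells were taken by the limits the study gives. The members and lists were chosen with earlier results of these data known.

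Cells were clustered on 2000 variable genes (30 principal components, 15 neighbours, Leiden resolution 0.5, leidenalg 0.10.2), without members, pathway genes, mitochondrial genes or reporters. A class name needed 3 markers raised 1.5-fold over the other clusters in at least 10% of cells. Clusters led by cell cycle genes or with too few raised markers stayed unnamed (73 and 94 cells) and entered no class. Doublets were kept. Names were rebuilt here, so differences from the study may come from them.

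Counts were summed per mouse for each class with at least 20 cells per mouse, and all 4 classes were fitted together with edgeR 4.0.16 (quasi-likelihood, TMM, filterByExpr, R 4.3.3), adjusted by Benjamini-Hochberg over all tested genes. Mouse numbers pair the sums, which come from the same animal. Deviations of the same mouse correlated across genes at 0.27, 0.14 and 0.17 in the class comparisons and at 0.51 for tdTomato. Counts for the preosteoblast-like comparison were simulated (12279 genes) with the same spread for every gene and no mouse effect. There 98.9% of changes of 2 and 53.5% of changes of 1 on the log2 scale were called, with 11 false calls. Recovery in the real data, which differ in these settings, was not measured. Poisson and Wilson intervals cover counting error only. Other pathway genes were named for the 5 largest called changes in each direction with both mice alike, 1 of which is not reported here. Smad5, Smad6, Dlx5, Hey1 and Id4 in the preosteoblast-like comparison, and the genes whose call changed with the block, were named after their values were seen.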

Additional observations from a re-analysis of the deposited data

How the results depend on the processing

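Without the filter on low counts, called pathway genes between preosteoblast-like and reticular-like cells numbered 28 (13 higher, 15 lower) in place of 18. Of the listed genes 44 were then tested, in place of 36. Called members in tdTomato-positive cells, 0 without a block, numbered 4 with the replicate block, where 824 of all 12219 genes were called. They numbered 5 in cells matched on cluster and depth with the replicate block (556 of 11998 genes called). Without the low-count filter 1 was called (83 of 18280 genes called). Id3, near 0 in that comparison, turned to -0.030 with the replicate block, -0.012 at the 95th percentile, -0.070 in matched cells with the replicate block and -0.032 with cells of 500 genes and 20% mitochondrial UMIs, and was called in none of them; the cause was not tested. The other 53 recomputed summary values, under RLE size factors, DESeq2, other cell limits, resolution 1.0, doublet removal, thinning and single mice, stayed within 1.5 times or the spread of the mice. Without replicate 1 or 2 the r of Id1 with Id3 in reticular-like cells was 0.12 to 0.17, which arithmetic keeps within the spread of the mice. With the replicate block 13 pathway genes were lower in preosteoblast-like cells in place of 8, with 12 in place of 10 higher. No share over all genes was taken with the block or without the low-count filter, so neither count is read as an excess. The block changed no other total of called or of higher or lower pathway genes by over 1.5 times. No test is possible on a single mouse, whose sums leave no residual freedom, so member levels are given per mouse. Of the recomputed values of named pathway genes, 383 kept their direction and, where tested, their call, and Smad5 lost its call in 2. Most named genes were chosen with both mice alike, so their single-mouse directions were fixed in advance. Of 250 recomputed member levels, 239 stayed within 1 SD of the mice. A single mouse lies within 1 SD of the mean of 2 by arithmetic, so those levels had to stay. Other cell limits, clustering or doublet removal gave 160 of the 250. The removal of the S100a8-rich cell was chosen after seeing the data. Few UMIs limit Bmp6 and Bmpr1a in endothelial-like cells. In mature osteoblast-like cells the small number of cells (14 and 62) limits the members, although these cells were deep.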
